A study of Homo sapiens with 4 samples.

Results

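The KRAB zinc finger genes of 19p12 are a family of neighbouring genes that arose by repeated duplication on the short arm of human chromosome 19. The genes described here are 35 listed by symbol and found in the count table by Ensembl identifier, of 37515 genes in the table. The band 19p12 is the name of the list, and the position of each gene against the limits of the band was not checked. All 35 had a row. RNA-seq was made of Caco-2, a human colorectal carcinoma cell line used as a model of intestinal epithelium, in 4 libraries. All 4 were labelled WT, from cells grown on transwell inserts for 15 days before treatment. The control group was 2 libraries of unstimulated cells at 0 h, given medium alone. The other was 2 libraries of cells given IFNγ, a cytokine, at 60 ng/ml on the basal side for 3 h. No deletion, transgene or other agent is given in the labels for either group. The comparison asked how transcript levels of these genes differed after IFNγ, and it holds both the cytokine and the 3 h that passed. Nothing in the labels says that libraries of a group came from separate cultures, so p-values measure the spread between these libraries, which may be technical.

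A KRAB zinc finger protein binds DNA through an array of C2H2 zinc fingers, each of which contacts a few bases. Its KRAB domain recruits the corepressor TRIM28, which brings the histone methyltransferase SETDB1 and heterochromatin proteins to the bound site. The family is best known for silencing transposable elements: ZNF91 represses SVA elements and ZNF93 represses LINE-1 elements.

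The annotation used for counting may have been another one. In GENCODE 44 on GRCh37 the 35 genes lie on chromosome 19 between 19779605, the start of ZNF101, and 24312770, the end of ZNF254, a stretch of 4.53 Mb. There were 18 on the plus strand and 17 on the minus strand. The coding sequences held a median of 13 matches to the C2H2 finger pattern, from 5 in ZNF738 to 39 in ZNF729, with 32 in ZNF91. A stretch of 24 bases that encodes the link between one finger and the next was the most widely shared of its length. It had 144 occurrences in the coding sequences of 33 of the 35 genes. It was absent from ZNF101 and ZNF14, the first 2 genes of the stretch. Zinc finger genes outside the list were not searched for this repeat, so it is not known to be particular to the family. It is shown as the sequence that most of the family has in common:

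Finger linker repeat: tggagagaaaccctacaaatgtga

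Many of the promoters also shared a run of bases. RefSeq promoter windows of GRCh38.p14, from 250 bases before to 50 after the start, were matched to 27 of the 35 genes, ZNF682 with 2 windows. The most widely shared run of 14 bases, searched on the strand of the gene after the windows had been read, was atcttctgtcactc. It occurred without a mismatch in the windows of 14 of the 27 genes and in 2 other windows of 35116 in all (0.0456% hold it), those of ZNF492 and ZNF723. The run was picked as the most shared in the family's windows, so its higher share there follows in part from that choice. With up to 1 mismatch it was in 17 of the 27 and in 0.0911% of all windows. The 15 windows outside the family included those of 10 other ZNF genes. The 250 bases before the start are shown for ZNF681 and ZNF254, the tested genes with the largest changes after IFNγ, and for ZNF486, the one with the smallest, with the best match to these 14 bases in capitals. ZNF681 was read from chr19:23758892-23759141 on the minus strand, ZNF254 from chr19:24086937-24087186 and ZNF486 from chr19:20166964-20167213, both on the plus strand.
ZNF681: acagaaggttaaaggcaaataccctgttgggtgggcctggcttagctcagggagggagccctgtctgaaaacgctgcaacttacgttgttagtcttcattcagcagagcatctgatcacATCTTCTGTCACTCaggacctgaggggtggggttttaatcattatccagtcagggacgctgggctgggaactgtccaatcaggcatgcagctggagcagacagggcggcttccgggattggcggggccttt
ZNF254: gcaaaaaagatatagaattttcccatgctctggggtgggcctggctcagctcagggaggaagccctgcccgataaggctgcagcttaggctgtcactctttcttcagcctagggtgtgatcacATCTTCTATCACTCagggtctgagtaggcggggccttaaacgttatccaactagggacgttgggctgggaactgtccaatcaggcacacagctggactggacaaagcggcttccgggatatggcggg
ZNF486: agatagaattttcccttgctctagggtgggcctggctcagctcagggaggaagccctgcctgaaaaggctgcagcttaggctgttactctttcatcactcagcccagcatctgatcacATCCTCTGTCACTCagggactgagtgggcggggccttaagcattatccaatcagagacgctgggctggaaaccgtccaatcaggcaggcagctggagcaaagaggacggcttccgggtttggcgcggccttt

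The match began 131 bases before the start in ZNF681, 127 in ZNF254 and 132 in ZNF486, with 0 mismatches in ZNF681 and 1 in each of the others. Of the 27 genes, 5 had no match with up to 2 mismatches: ZNF101, ZNF14, ZNF43, ZNF682 and ZNF730. At this setting 0.290% of all windows held a match. Of these windows 80 were outside the family, and they included those of 27 other ZNF genes.

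The cells matched their labels. IRF1, TAP1 and GBP1, all induced by IFNγ, rose by 5.86, 5.36 and 2.50 on the log2 scale, with adjusted p-values under the threshold of 0.05. All 9 epithelial markers were tested, at 12.2 to 1906 mean normalized CPM (counts scaled to library size) in unstimulated cells. Of these 9, CDX2, KRT8, KRT18 and ALPI rose by 1.20, 0.84, 0.88 and 0.45 at an adjusted p under 0.05 in edgeR, and the brush border enzyme SI fell by 1.13. The part of these markers in the results on the zinc finger genes was not tested. Of 9 markers of immune, stromal and endothelial cells, 8 had a row and 4 were tested, and 0 passed at an adjusted p under 0.05 with edgeR. The leukocyte marker PTPRC reached at most 2 counts and the fibroblast marker DCN at most 1. COL1A1 was at 134 CPM in unstimulated cells and made up most of the summed level of the 8, which was 195 and 102 CPM in the unstimulated libraries and 178 and 131 CPM in the IFNγ libraries. The libraries held 7171455 to 10365346 counts, so 1 CPM was worth 7.14 to 10.3 counts.

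Of the 35 genes, 22 passed the filter on low counts and were tested. ZNF93 and ZNF90 passed through the unstimulated libraries alone, so the filter itself favoured a lower value after IFNγ in these 2, while the other 20 passed in each group. The 13 genes that were not tested had at most 6 counts in any library, and 5 of them, ZNF729, ZNF98, ZNF99, ZNF728 and ZNF730, had 0 counts in all 4. A count of 0 allows up to 3 counts, which is 0.292 to 0.420 CPM in these libraries, and covers counting error only.

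The low genes were neighbours. From ZNF43 at 21987752 to the end of ZNF730 at 23330023, 9 genes in a row were not tested over 1342 kb, and the highest count among them was 3. ZNF43 had 3 and 2 counts without and 0 and 0 with IFNγ, ZNF208 had 1 count in all, and ZNF257 and ZNF676 had 1 count each. On either side of this stretch lay tested genes: ZNF100 with 51 to 112 counts per library before it and ZNF724 with 13 to 45 after it. The other 4 genes not tested, ZNF626, ZNF85, ZNF429 and ZNF726, stood singly among tested ones. ZNF429 had 2 and 1 counts without and 6 and 2 with IFNγ, too few to tell a difference.

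The low counts could not be told apart from reads that were not assigned. As a measure of how well a read can be placed, 8 of the 35 genes shared over 10% of their 50-base words with another gene, led by ZNF98 at 58.1% and ZNF724 at 55.4%. Of these 8, 3 were tested, namely ZNF724, ZNF738 and ZNF66, and their values are uncertain for that reason. In the stretch of 9 low genes, ZNF208 (33.8%), ZNF98, ZNF676 (10.8%) and ZNF729 (10.4%) were above 10%. ZNF43, ZNF257, ZNF99, ZNF728 and ZNF730 shared 3.11% to 8.66%. Exons of 17 of the genes, 11 of them tested, overlap another annotated gene, and the strand setting of the counting is not given in the sources used here. Exons of ZNF254 and ZNF737 overlap one, and those of ZNF681 and ZNF91 do not.

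**Figure D1:**
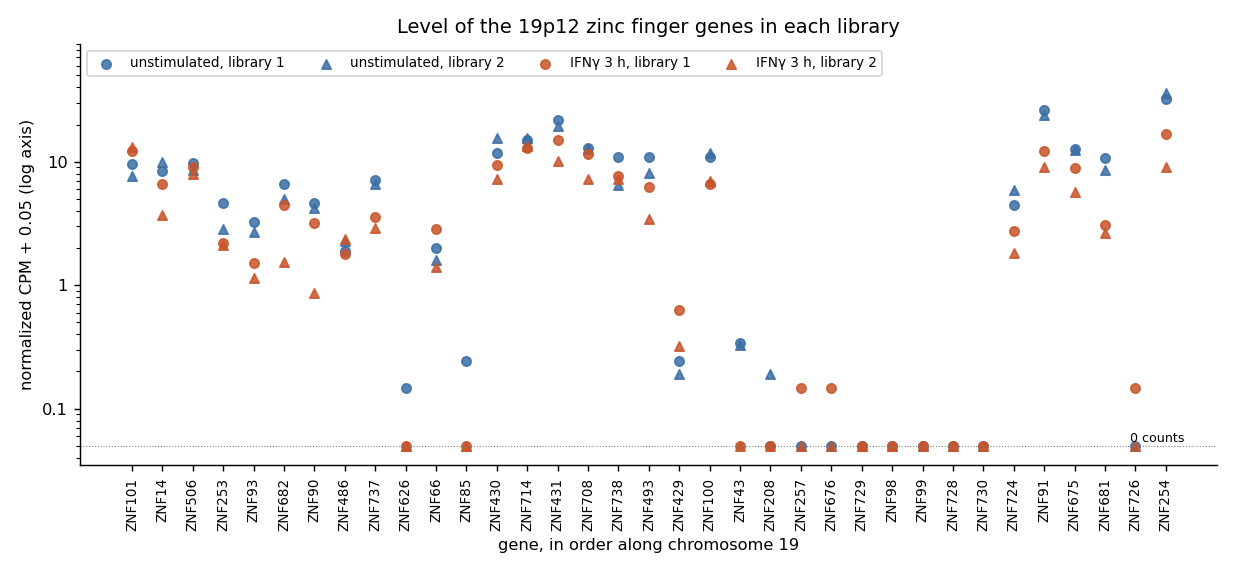
Normalized CPM plus 0.05 on a log axis for the 35 genes in their order along chromosome 19, with 1 point per library: circles are library 1 and triangles library 2 of each group, blue is unstimulated and orange is IFNγ for 3 h. The 9 genes from ZNF43 to ZNF730 lie at or near 0 counts, while the tested genes lie between 0.819 and 35.7 CPM, with the orange points mostly lower.

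After 3 h of IFNγ most of the tested genes were lower. Together the 35 genes gave 238 and 228 normalized CPM in the unstimulated libraries and 160 and 120 in the IFNγ libraries. In bulk RNA, fewer cells expressing a gene and less RNA per cell cannot be told apart. Of the 22 tested genes, 20 had a negative log2 fold change (90.9%) and 2 a positive one. Negative values were held by 50.6% of all 14820 tested genes. They were held by 82.1% of the 1254 other genes within the middle 50% of the family's GC content. The median of the 22 was -0.79, beside -0.01 over all tested genes. ZNF93 and ZNF90, where the filter favoured a lower value, are among the 20. With at least 10 counts required in every library, which left both out, the median was -0.76. At a Benjamini-Hochberg adjusted p under 0.05 and a change past 1 on the log2 scale, the quasi-likelihood test of edgeR called 4 of the 22 lower (18.2%), while 4.4% of all tested genes were called lower. The called genes were ZNF681, ZNF254, ZNF91 and ZNF737. None of the 22 was called higher, where 2.88% of all tested genes were. At an adjusted p under 0.05 alone, 5 of the 22 were lower (background 11.0%) and 0 were higher (background 9.02%), and 12 were lower and 1 higher at an unadjusted p under 0.05 (background 18.8% and 16.6%). Among the 1254 other genes within the middle 50% of the family's GC content, 31.7% were lower at an adjusted p under 0.05 and 49.4% at an unadjusted one, beside 22.7% and 54.5% in the family. DESeq2 also found 0 higher and 3 lower at an adjusted p under 0.05. With a change past 1 as well it called 3 lower, beside 3.89% of all tested genes.

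The direction of most genes was the same in both libraries. Both IFNγ libraries lay below both unstimulated libraries for 17 of the 22 genes, compared with 30.8% of all tested genes. ZNF93 and ZNF90, where the filter favoured a lower value, are among the 17. With at least 10 counts required in every library, which left both out, it was 15 of 20. Only ZNF101 had both IFNγ libraries above, compared with 31.6% of all tested genes. Taking libraries of the same number, 18 of the 22 were lower in both ratios of IFNγ to unstimulated, ZNF93 and ZNF90 among them. The share of all tested genes lower in both ratios is not given. In the first and second ratio alone 20 and 19 were lower, beside 7419 and 7523 of all 14820 tested genes. Among other genes within the middle 50% of the family's GC content they were 975 and 1044 of 1254. The median log2 ratio of the 22 was -0.53 for the libraries numbered 1 and -1.10 for those numbered 2, and 16 of the 22 were more negative in the second. The second IFNγ library thus held the lower values, and both the number of calls and the median depended on the first. Without IFNγ library 1 the median log2 fold change was -1.11, and without IFNγ library 2 it was -0.53. It was -0.75 without unstimulated library 1 and -0.78 without unstimulated library 2.

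**Figure D2:**
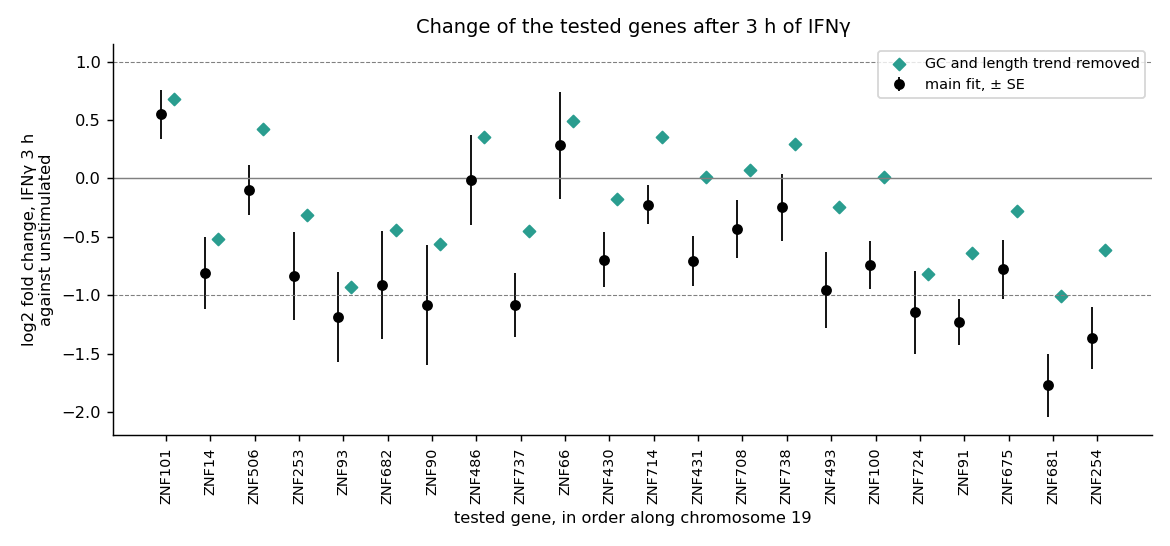
Log2 fold change of IFNγ for 3 h against unstimulated for the 22 tested genes in order along chromosome 19, with black points and bars for the estimate ± SE and green diamonds for the estimate once the trend with GC content and length of the transcript was removed. In black 20 of 22 points lie below 0, and in green 13 lie below and 9 above.

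ZNF681 changed most. Its counts were 110 and 61 without and 31 and 19 with IFNγ, which is 10.7 and 8.55 CPM against 3.02 and 2.59. The groups did not overlap. The level was 3.42-fold lower after IFNγ, or -1.77 on the log2 scale (SE 0.271, adjusted p = 0.0056 in edgeR). The function of its product is little studied.

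ZNF254 had the highest level of the 35, both in CPM and per kilobase of transcript. It had 331 and 255 counts without and 173 and 66 with IFNγ, or 32.2 and 35.7 CPM against 16.8 and 9.01. The groups did not overlap, although the IFNγ libraries stood far apart from each other. The log2 fold change was -1.37 (SE 0.267, adjusted p = 0.0127 in edgeR), and the log2 ratios were -0.93 and -1.96 for libraries 1 and 2.

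ZNF91, the SVA repressor, lies next to ZNF724 and ZNF675 at 23487793 to 23578273 on the minus strand. Its counts were 271 and 170 without and 126 and 66 with IFNγ, or 26.4 and 23.8 CPM against 12.3 and 9.01. The groups were clearly apart, with a change of -1.23 on the log2 scale (SE 0.196, adjusted p = 0.00639 in edgeR). ZNF93, the LINE-1 repressor, was scarcer, with 33 and 19 counts without and 15 and 8 with IFNγ. Its log2 fold change of -1.18 was of similar size, but with these counts its SE was 0.385 and it did not pass (adjusted p = 0.0697 from edgeR).

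ZNF737 had 72 and 47 counts without and 36 and 21 with IFNγ, or -1.08 on the log2 scale (SE 0.276, adjusted p = 0.0333 in edgeR). Its groups did not overlap, but its call was lost when unstimulated library 1, unstimulated library 2 or IFNγ library 2 was left out (adjusted p = 0.128, 0.08 and 0.117). DESeq2 did not call it either (adjusted p = 0.11). ZNF100 passed the adjusted p but not the fold, at 10.9 and 11.8 CPM without and 6.61 and 6.96 CPM with IFNγ, or -0.74 on the log2 scale (adjusted p = 0.0442 in edgeR). Its ratios were alike in the 2 pairs of same-numbered libraries, at -0.70 and -0.74.

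A second set of genes had negative estimates that did not pass the adjusted p. ZNF675, whose product binds TRAF6 and is known to dampen signalling to NFκB, had 130 and 89 counts without and 91 and 41 with IFNγ, or -0.78 on the log2 scale (adjusted p = 0.0699). ZNF431, which is known as a repressor of the Hedgehog receptor gene PTCH1, had 222 and 140 counts against 153 and 74 (-0.71, adjusted p = 0.0564). For ZNF724 the counts were 45 and 42 against 28 and 13 (-1.15, adjusted p = 0.0602), with the limit on read placement given above. In each of these 3 genes the groups did not overlap and the second IFNγ library was the lowest.

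The same order of libraries was seen in several less studied genes. ZNF90 had 47 and 30 counts without and 32 and 6 with IFNγ, so that 1 library carried most of its log2 fold change of -1.08. ZNF682 went from 67 and 35 to 45 and 11 counts, and ZNF14 from 86 and 71 to 67 and 27. Their adjusted p-values from edgeR were 0.178, 0.202 and 0.106. ZNF493 (111 and 58 counts against 64 and 25), ZNF430 (120 and 111 against 96 and 53) and ZNF253 (47 and 20 against 22 and 15) had log2 fold changes of -0.95, -0.70 and -0.83, none of which passed.

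The remaining genes differed little or were higher. ZNF506 had 99 and 61 counts without and 93 and 58 with IFNγ, a log2 fold change of -0.10 with an SE of 0.214. ZNF486 had 19 and 16 counts against 18 and 17, and its estimate of -0.01 had an SE of 0.383, so a change of the size seen for the family median was not told apart at this depth. ZNF714 kept its groups apart at 15.1 and 15.6 CPM against 12.8 and 13.4 CPM, and its log2 fold change was -0.23 (adjusted p = 0.381 in edgeR). For ZNF708 (-0.43) and ZNF738 (-0.25) the adjusted p-values were 0.26 and 0.586.

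ZNF101 and ZNF66 were the genes with positive estimates. ZNF101 had 98 and 54 counts without and 125 and 96 with IFNγ, or 9.54 and 7.57 CPM against 12.2 and 13.1. Both IFNγ libraries were above both unstimulated ones, and the log2 fold change was 0.55 (SE 0.208), which did not pass in edgeR (adjusted p = 0.106). ZNF101 also had the highest GC content of the 35 (45.0%), and it is 1 of the 2 genes without the finger linker repeat. Its neighbour ZNF14, the other one, had a log2 fold change of -0.81. ZNF66 had 20 and 11 counts against 29 and 10, a log2 fold change of 0.28 whose SE of 0.458 exceeded it.

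The genes share a GC content on the low side of that of the tested genes. Their transcripts, with the longest or canonical one taken for each gene, had a median GC content of 37.2%, from 33.2% in ZNF254 to 45.0% in ZNF101, beside 48.5% over the tested genes. Of the tested genes 5.74% were at or under the median of the family, and 5327 other tested genes lay within its GC range. ATTTA is the core of AU-rich elements, which are known to shorten the life of a transcript. It had a median of 3.39 per kb of 3′ untranslated sequence in the 22 tested genes and 1.67 over all tested genes, but 3.43 in the other genes within the middle 50% of the family's GC content. Transcript stability itself was not measured.

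Base composition moved with the change after IFNγ in all genes. Across 14518 tested genes with a sequence, Spearman's rho between GC content and log2 fold change was 0.436, and across the 22 family genes it was 0.508. These are descriptions across genes of the same 4 libraries, and genes are not independent replicates. Among tested genes of 30 to 35% GC the median log2 fold change was -0.64 and 27.9% were called lower, and the 4 family genes in this band had a median of -1.16. At 35 to 40% GC the median was -0.45 over 2097 genes, with 13.7% called lower, and -0.74 over 14 family genes. In the band of 45 to 50%, which holds ZNF101, the median was 0.00 and 2.36% were called lower. Between ATTTA per kb and log2 fold change rho was -0.31 in the 22 genes, and with transcript length it was 0.10.

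**Figure D3:**
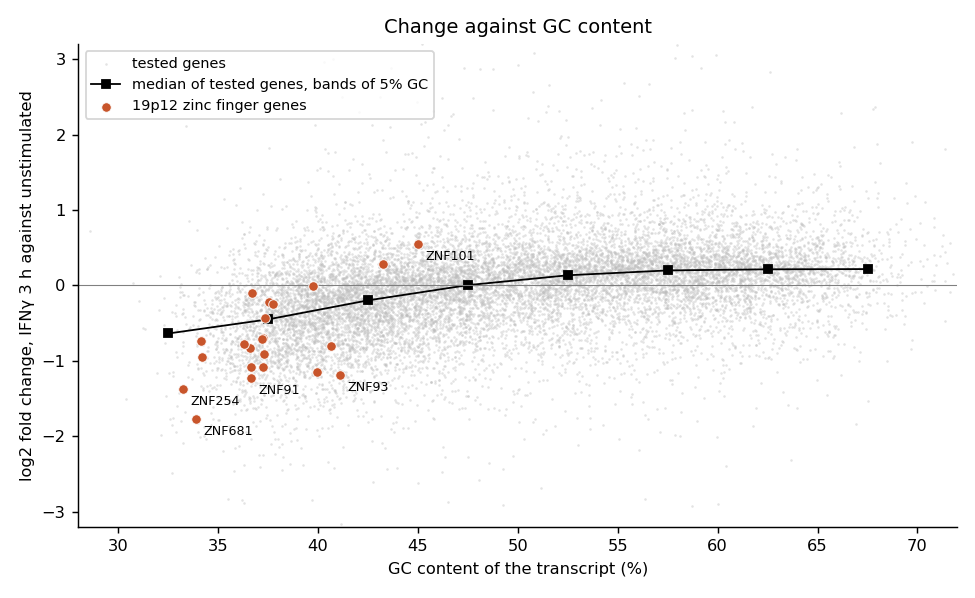
Log2 fold change of IFNγ for 3 h against unstimulated plotted against the GC content of the transcript in percent, with tested genes in grey, the family genes in orange and squares for the median of tested genes in bands of 5% GC. The medians climb from -0.64 at 30 to 35% GC to 0.22 at 65 to 70%, and most orange points lie at the left, below the line of medians.

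When the trend with GC content and length of the transcript was removed from each library, the median of the 22 genes moved from -0.79 to -0.26, with 13 negative and 9 positive, beside 0.02 over all tested genes with a sequence. ZNF681 was then the only one called lower (-1.01, adjusted p = 0.0428 from edgeR), and 2.07% of the genes tested in this way were called lower. ZNF91 was at -0.64 with an adjusted p of 0.045, under the threshold of p but not past the fold, and ZNF254 was at -0.61 (adjusted p = 0.0895). ZNF737 fell out as well, at -0.45 (adjusted p = 0.316), and ZNF100 came to 0.01. The values of ZNF93 and ZNF724 stayed low, at -0.93 and -0.82, without passing. ZNF506 and ZNF714 turned positive, at 0.42 and 0.36, and ZNF101 was at 0.68 (adjusted p = 0.0607). The part of GC content and length in the family's change was not tested beyond these values.

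Before the trend was removed, the family had the lowest median of the 8 groups of genes compared. The family and the groups were chosen with earlier results of these data known, so this rank is a description only. Other genes within its range of level numbered 5962 and had a median log2 fold change of -0.06, with 5.37% called lower. The 1254 other genes within the middle 50% of the family's GC content had a median of -0.47, with 12.9% called lower and 66.0% with both IFNγ libraries below both unstimulated ones, beside 77.3% (17 of 22) in the family. Other ZNF genes of chromosome 19 (162 genes) had a median of -0.34 with 6.79% called lower, and ZNF genes of other chromosomes (190 genes) had -0.13 with 9.47% called lower. With the trend removed these medians were -0.02, 0.01, -0.16 and -0.06, and that of the family was -0.26. The 9 tested genes that lie within the same stretch of chromosome 19 but are not on the list had medians of -0.46 before and -0.35 after the trend was removed. The second value lies below that of the family. These genes were shorter and scarcer, with a median transcript length of 1185 bases (family 4046.5) and a median log2 CPM of 1.41 (family 2.98). Exons of 17 family genes overlap another gene, so the 9 may not be separate from the family. Of these 9, 8 were negative and 7 (77.8%) had both IFNγ libraries below both unstimulated ones, and 1 was called lower. No test of the difference between the family and these groups was made.

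**Figure D4:**
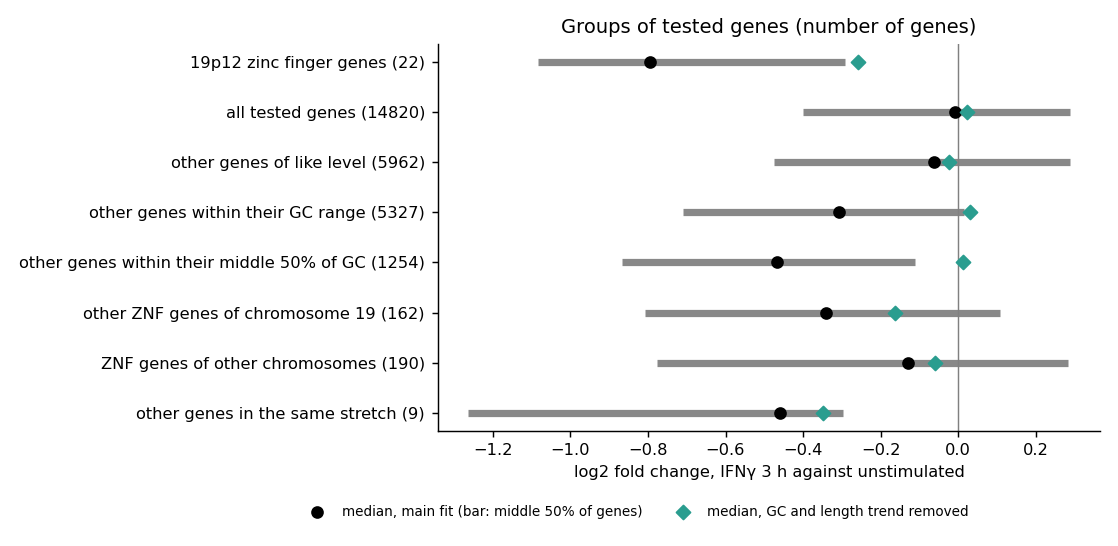
Median log2 fold change (black points) of the 19p12 zinc finger genes and of 7 other groups of tested genes, with grey bars for the middle 50% of genes and green diamonds for the median once the trend with GC content and length of the transcript was removed. The family's black point lies at -0.79 and its green one at -0.26, with the number of genes of each group in parentheses.

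The genes through which KRAB zinc finger proteins silence chromatin were a list of 18, of which 17 had a row and all 17 were tested, and UHRF1 was not analysed here. TRIM28, the corepressor that the KRAB domain binds, had 2899 and 1993 counts without and 3501 and 2605 with IFNγ, or 0.31 on the log2 scale, which did not pass in edgeR (adjusted p = 0.0778). SETDB1 had 594 and 394 counts against 509 and 347 (-0.22, adjusted p = 0.243). Of the 17 genes, 5 were lower at an adjusted p under 0.05, 0 were higher and 0 were past the fold. CBX3 and CBX5, 2 heterochromatin proteins that read methylated histone H3, fell by 0.72 and 0.40 (adjusted p = 0.0195 and 0.0406). TASOR and MPHOSPH8, subunits of the HUSH silencing complex, fell by 0.77 and 0.58 (adjusted p = 0.00884 and 0.0219). SMARCAD1, a chromatin remodeller that binds TRIM28, fell by 0.79 (adjusted p = 0.00946). With that trend removed none of these 5 passed, and their values were -0.17 for CBX3, 0.08 for CBX5, -0.23 for TASOR, -0.43 for MPHOSPH8 and -0.23 for SMARCAD1. The background for the 5 of 17 lower (29.4%) is the 11.0% of all tested genes given above.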

How the data were processed

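RNA-seq counts of 4 Caco-2 libraries were used. The deposited values are raw counts of reads per Ensembl gene, which the authors did not normalize or pool. Per the labels' processing notes HISAT 0.5.1 and HTSeq 0.6.1p1 were named, with no role given. The genome build and strand setting for these libraries are not given in the sources used here. The authors' own fold changes and calls at other times were not used.

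Genes were filtered with edgeR's default (4.0.16, R 4.3.3), scaled by TMM and tested with its quasi-likelihood test, without a block. SE is the log2 fold change over the root of F. Ratios of single libraries used CPM with a prior count of 2. Annotation was GENCODE 44 on GRCh37 for 96.5% of genes. The dependence on GC content and length was fitted in each library by loess (span 0.3) and subtracted. With 2 libraries per group an exact permutation test cannot go below p = 0.333, so none was used. On data simulated from these libraries (14820 genes, 200 changed 4-fold) the test recovered 90.5% with 5.52% false calls. The simulated counts held no trend with GC content and no deviations shared by libraries of the same number. These rates are for changes larger than any estimated in the family and were not measured for smaller ones.

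The family and all lists were chosen with earlier results of these data known. The genes named are those called, the 3 with the highest CPM per kb, those with a positive estimate and the 2 with the smallest change. Others, and the run of bases shared by promoters, were chosen after their values were seen. A gene of the list that checks the labels, and a promoter motif, are not reported here. Alternatives were other scalings, DESeq2 1.42.0, other filters and thresholds, the replicate block, and each library left out in turn.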

Additional observations from a re-analysis of the deposited data

How the results depend on the processing

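The 4 genes called lower were also 4 with DESeq2's size factors, upper quartile scaling and total counts alone. Of all tested genes these called 4.53%, 3.95% and 4.85% lower. The count was 1 with the trend of GC content and length removed, with or without the replicate block. Of the genes tested in this way 2.07% were called lower without the block and 3.13% with it. The count was 2 at an adjusted p under 0.01 and 2 against a fold threshold with glmTreat. There 2.58% and 2.61% of all tested genes were called lower. Once genes with overlapping exons were left out, a choice made after seeing the data, 2 of 11 were called lower. The 5 lower at the adjusted p alone became 3 with DESeq2, also without its independent filtering. With no filter on low counts 13 of 30 were lower. That fit had infinite prior degrees of freedom, so it did not use the spread of each gene. With the trend removed 923 of 14518 tested genes were lower at the adjusted p alone. For the other alternatives this share is not given. The number lower at the adjusted p alone was 11 of 22 with the replicate block, 2 with the trend removed and 3 with both. With no background at this threshold for the block, its 11 of 22 cannot be set against all tested genes. With both, 1 gene was higher, ZNF101. The median of -0.79 became -0.26 with the trend removed and -0.27 with the block as well. With the replicate block alone 6 genes were called lower, and 6.05% of all tested genes. The labels share only a replicate number, and deviations of same-numbered libraries correlated at 0.415 across genes. When single libraries were left out, the genes called lower ranged from 3 to 11 and those lower at the adjusted p from 3 to 12, the high values being without IFNγ library 1. ZNF486 was 0.029 with upper quartile scaling, 0.0070 with no filter, 0.36 with the trend removed, 0.35 with the block too, and -0.23 to 0.18 with libraries left out. ZNF506 was 0.42 with the trend removed, with and without the block. ZNF66 ranged from -0.38 to 0.65 with libraries left out. ZNF681 kept its call and sign in all 14 alternatives run for it, from -1.92 to -1.01. The cause of these shifts was not tested. An alternative on protein identity was not run. With 7171455 to 10365346 counts per library and 2 libraries per group, ZNF486 at 16 to 19 counts had an SE of 0.383.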
